A study of Homo sapiens with 36 samples.

Results

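The genes described here are 48 nuclear genes of the mitochondrial protein import machinery and of the chaperones and proteases that fold, trim and remove proteins inside the organelle. They are every gene of the authors' deposited table whose symbol starts with TIMM or TOMM, other than TIMMDC1, together with the named chaperones, motor subunits, proteases, prohibitins, processing peptidase subunits and sorting and assembly subunits, 48 of 11828 genes in all. PHB, the older symbol of PHB1, was the 1 symbol of the rule with no row of its own, and PHB1 was present.

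The study sequenced poly(A)-selected RNA from 36 libraries of cancer cell lines, and the comparisons used here come from 16 of them. The lines were A375, derived from a melanoma with mutant BRAF, and HCC827, derived from a lung adenocarcinoma with mutant EGFR, and each was given 4 treatments for 3 days, with 2 libraries per treatment and line. The treatments were a combination of 6-thio-dG with the line's targeted drug, the targeted drug alone, 6-thio-dG alone, and DMSO as the control. The targeted drug was PLX4720, a BRAF inhibitor, in A375 and osimertinib, an EGFR inhibitor, in HCC827, and 6-thio-dG is a guanine nucleoside analogue that telomerase can add to telomeres. The other 20 libraries, a time course of 4 lines in 5 states, were not analysed here. Nothing in the labels says that the 2 libraries of a group came from separate cultures, so the p-values may measure technical spread only.

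The values are those of 4 comparisons in the authors' deposited table, namely the combination against the targeted drug and 6-thio-dG against the control, in each line. The header calls the comparators TKI1 and RNA, which are read here as the targeted drug group and the DMSO control. It does not say whether TKI1 means the group or 1 library. Since 0 of its columns give a single library, no level per sample, no spread between replicates and no sequencing depth can be given, and the markers of the lines could not be checked. The error given after a log2 fold change is a standard error worked back from the value and its p-value. A gene is said to have risen or fallen where the authors' adjusted p was under 0.05. In bulk RNA, fewer cells of a kind and less RNA per cell cannot be told apart.

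Nearly all mitochondrial proteins are made in the cytosol and imported unfolded. The TOM complex of the outer membrane receives them, the SAM complex inserts barrel proteins there, the small TIM chaperones carry hydrophobic proteins across the intermembrane space, TIM22 inserts carriers into the inner membrane, and TIM23 passes proteins with a presequence to the matrix. There the import motor around HSPA9 pulls them in, the processing peptidase removes the presequence, HSPD1 with HSPE1 folds them, and proteases such as LONP1 and CLPP remove those that fail. Import, folding and proteolysis are known targets of the mitochondrial unfolded protein response, in which nuclear genes answer to protein stress inside the organelle.

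Promoter windows of 250 bases before to 50 bases after the annotated start were taken from RefSeq (GRCh38.p14) and were found for 43 of the 48 genes. They are shown because HSPD1 and HSPE1, which encode a chaperonin and its lid, are head to head on chromosome 2. A further reason is that CACGTG, the core of the E-box read by MYC and related factors, lies before several genes. Their fold changes were among those that differed most between the A375 comparisons, and they were picked for that. The letters were found for 16.3% of the 43 genes and for 12.8% of genes of the deposited table. HSPD1 starts at base 197500274 on the minus strand and HSPE1 at base 197500379 on the plus strand, with 104 bases between the starts. A single CACGTG lies in those bases. LONP1 has 2 copies in the stretch shown, HSPA9 has 1, and TOMM20, which did not pass the threshold in any comparison, also has 1. TIMM22 is shown for TGATGCAA (TTGCATCA on the other strand), the letters of a C/EBP-ATF response element. Each run reads 5′ to 3′ on the gene's strand and the motif is in capitals. In GENCODE release 29 the outermost start of each of these genes lies further upstream than the RefSeq start used here.
HSPE1, plus strand, the 104 bases shared with HSPD1, chr2:197500275-197500378: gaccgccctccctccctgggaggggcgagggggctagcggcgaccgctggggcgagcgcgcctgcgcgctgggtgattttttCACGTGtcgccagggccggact
HSPA9, minus strand, chr5:138575402-138575521: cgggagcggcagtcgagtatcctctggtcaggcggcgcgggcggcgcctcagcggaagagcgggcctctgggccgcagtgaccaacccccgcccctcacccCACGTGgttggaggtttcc
LONP1, minus strand, chr19:5720147-5720366: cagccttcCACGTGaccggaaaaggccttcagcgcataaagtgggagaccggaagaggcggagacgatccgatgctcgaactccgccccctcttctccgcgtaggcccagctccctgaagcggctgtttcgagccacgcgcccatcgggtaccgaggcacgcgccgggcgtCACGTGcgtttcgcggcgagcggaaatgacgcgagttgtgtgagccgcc
TOMM20, minus strand, chr1:235128918-235129037: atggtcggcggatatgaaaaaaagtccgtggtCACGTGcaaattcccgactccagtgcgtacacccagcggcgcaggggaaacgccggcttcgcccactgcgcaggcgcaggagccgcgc
TIMM22, plus strand, chr17:997009-997128: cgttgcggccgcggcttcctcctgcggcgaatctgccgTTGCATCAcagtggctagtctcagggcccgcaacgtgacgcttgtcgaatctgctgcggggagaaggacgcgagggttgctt

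In A375 the 48 genes were mostly higher in the combination than with PLX4720 alone, while with 6-thio-dG alone more of them were lower than higher. In the combination 33 rose and 1 fell in A375 (68.8% and 2.08%), where 31.2% of all genes rose and 29.3% fell, and the median log2 fold change was 0.60 over the 48 genes and 0.06 over all genes. With 6-thio-dG alone 9 rose and 22 fell in A375 (18.8% and 45.8%), where 31.3% of all genes rose and 33.7% fell, and the medians were -0.24 and 0.01. In the A375 combination the import motor and the matrix chaperones had the highest medians of the 9 roles, 1.26 and 1.13, with all 6 and all 4 of their genes up, while the processing peptidase and the proteases and prohibitins had the lowest, 0.058 and 0.26.

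In HCC827 fewer of the genes passed. In the combination 15 rose and 4 fell (31.2% and 8.33%), where 17.3% of all genes rose and 17.9% fell, and the median was 0.27 over the 48 genes and -0.00 over all genes. With 6-thio-dG alone 6 rose and 6 fell (12.5% each), where 14.8% of all genes rose and 14.4% fell, so the shares lay near those of all genes. Fold changes in the HCC827 combination tracked the transcript's GC content, at a Spearman correlation of 0.76 over the 48 genes and 0.75 over 11802 genes, which are not independent replicates. With that trend removed by a lowess curve, 4 of the 48 genes rose and the other 44 did not pass in the HCC827 combination, among 395 rises and 323 falls over all genes. These 4 were TIMM8B, which had also passed as deposited, and PMPCB, TIMM9 and TOMM7, which had not. No call in the HCC827 combination other than that of TIMM8B therefore held with the GC trend removed, and this applies to each HCC827 combination value given below.

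**Figure D1:**
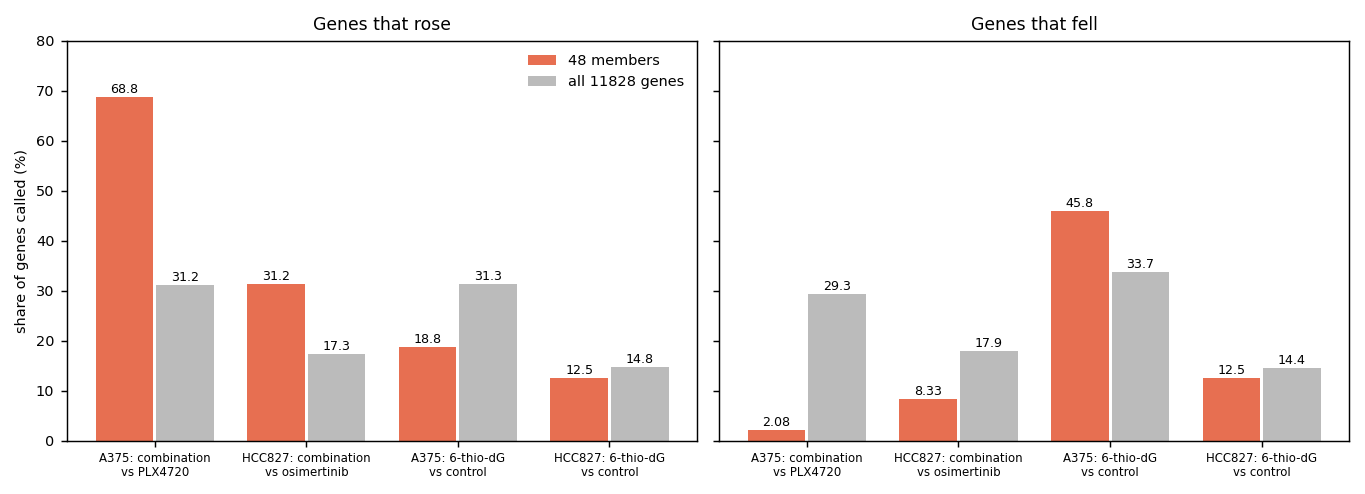
Share of genes, in percent, that rose (left panel) or fell (right panel) in each comparison, with a bar for the 48 import, chaperone and protease genes beside a bar for all 11828 genes. The bars stand furthest apart in the A375 combination, at 68.8% against 31.2% for rises and 2.08% against 29.3% for falls.

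**Figure D2:**
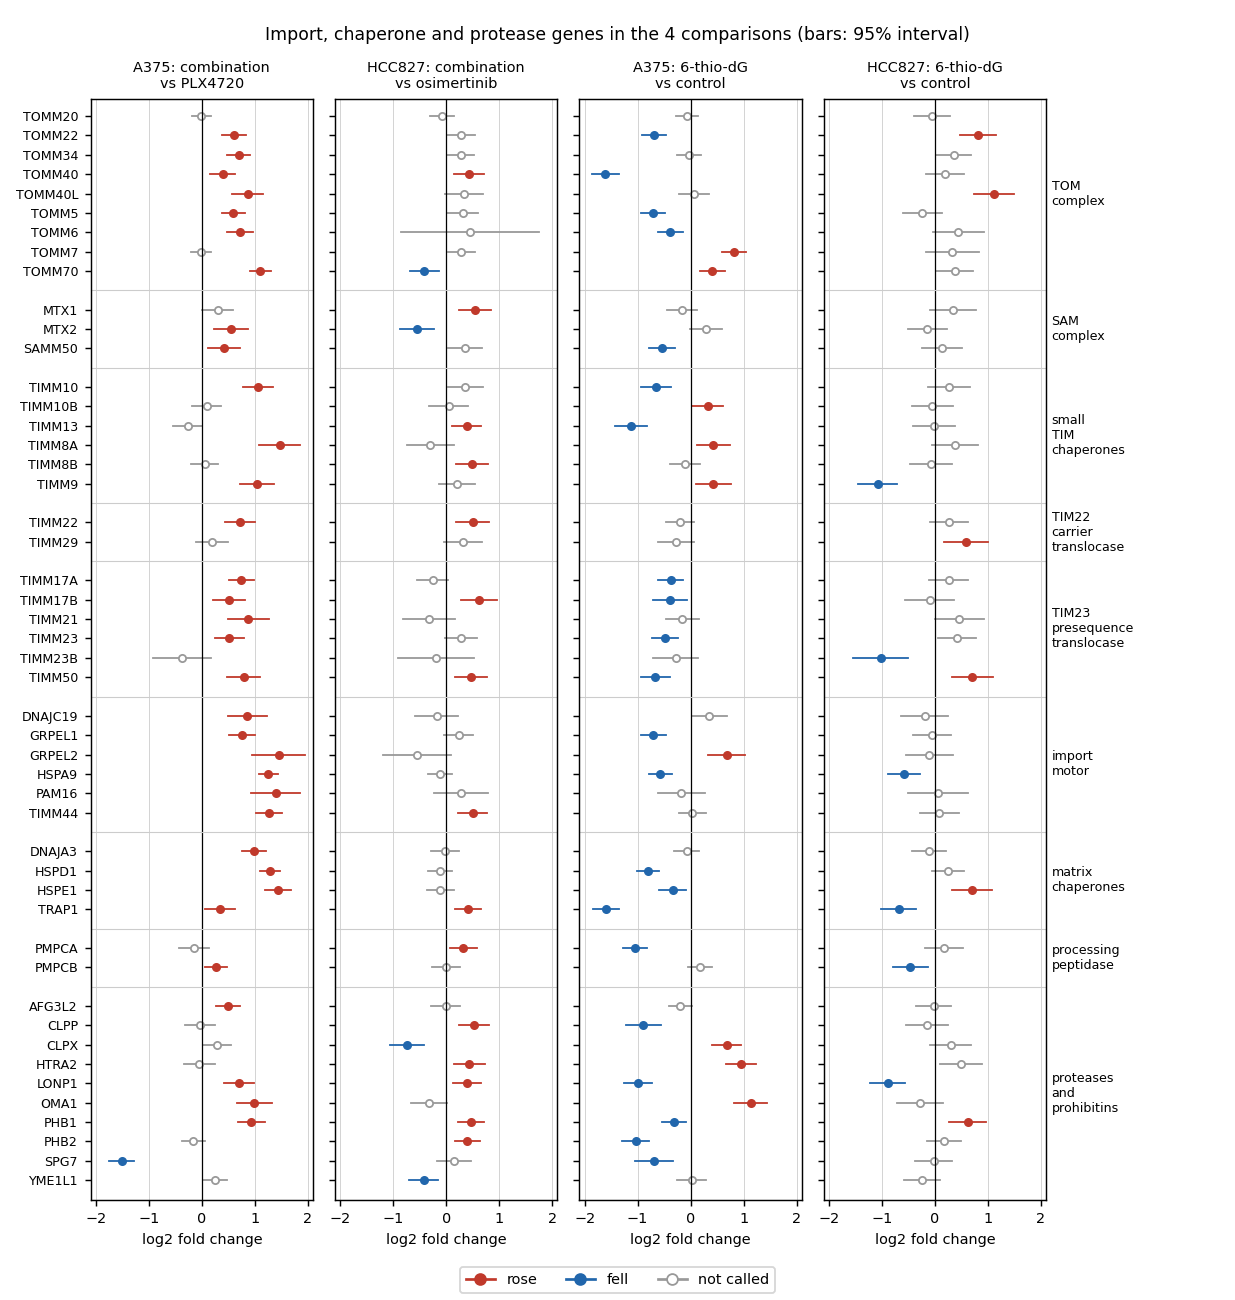
Log2 fold change (x axis) of each of the 48 genes, ordered by role down the page, in the 4 comparisons, with points for the authors' values and bars for the 95% interval from the implied standard error. Filled points passed the authors' adjusted p of 0.05, and in the A375 combination all 10 genes of the import motor and the matrix chaperones lie to the right of 0.

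Of the 9 TOM genes, 7 rose in the A375 combination, and with 6-thio-dG alone in A375 2 rose and 4 fell. TOMM40, the channel through which nearly all precursors pass, stood in the authors' deposited table at a log2 fold change of 0.39 ± 0.12 in the A375 combination and -1.61 ± 0.13 with 6-thio-dG alone in A375 (adjusted p = 1.68e-32). Only 776 of the 11828 genes were lower than TOMM40 with 6-thio-dG in A375. In HCC827 the authors' deposited table puts TOMM40 at 0.43 ± 0.15 in the combination and at 0.19 ± 0.18 with 6-thio-dG, where it did not pass. The central receptor TOMM22 rose by 0.61 ± 0.12 in the A375 combination and fell by 0.69 ± 0.11 with 6-thio-dG in A375, but it rose by 0.81 ± 0.17 with 6-thio-dG in HCC827 in the authors' deposited table. TOMM70, the receptor for carrier proteins, was at 1.10 ± 0.10 in the A375 combination and -0.41 ± 0.14 in the HCC827 combination in the authors' deposited table, a rise in one line and a fall in the other.

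TOMM20, the presequence receptor, did not pass in any comparison in the authors' deposited table, with log2 fold changes of -0.01 ± 0.09 and -0.08 ± 0.12 in the A375 and HCC827 combinations and -0.07 ± 0.11 and -0.06 ± 0.17 with 6-thio-dG alone in A375 and HCC827. With the GC trend removed from the authors' values it was at -0.23 in the A375 combination and -0.46 with 6-thio-dG in A375, and passed in both (adjusted p = 0.0209 and 3.82e-05). TOMM40L, a TOMM40 paralogue, was the largest rise of the 48 genes with 6-thio-dG in HCC827, at 1.11 ± 0.19 in the authors' deposited table, and stood at 0.86 ± 0.15 in the A375 combination. The small subunits differed among themselves. TOMM5 and TOMM6 rose in the A375 combination (0.59 and 0.72) and fell with 6-thio-dG in A375 (-0.72 and -0.38) in the authors' deposited table, whereas TOMM7 was at -0.01 in the A375 combination and rose by 0.82 with 6-thio-dG in A375. TOMM34, a cytosolic co-chaperone of import, rose by 0.70 ± 0.11 in the A375 combination in the authors' deposited table and passed in no other comparison. All exonic bases of TOMM6 (100%) also belong to AL365205.1 in GENCODE release 29, so its reads are not certain to be its own. TOMM6, with the GC trend removed, was at -0.26 with 6-thio-dG in A375 and TOMM70, which had risen there by 0.41 as deposited by the authors, was at 0.11 (adjusted p = 0.0532 and 0.415).

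Of the 3 SAM genes, 2 rose in the A375 combination and 1 fell with 6-thio-dG in A375. SAMM50, the barrel-inserting subunit, was at 0.42 ± 0.15 in the A375 combination and -0.54 ± 0.12 with 6-thio-dG in A375 in the authors' deposited table. MTX1 and MTX2, its partners on the cytosolic face, moved apart in the HCC827 combination, at 0.54 ± 0.15 and -0.55 ± 0.17 in the authors' deposited table. Their transcripts hold 63.4% and 42.4% GC. MTX2 rose by 0.55 ± 0.17 in the A375 combination in the authors' deposited table, and was at 0.35 with the GC trend removed (adjusted p = 0.0606).

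Of the 6 small TIM genes, 3 rose in the A375 combination. TIMM8A, which works with TIMM13, was the largest rise of all 48 genes there, at 1.47 ± 0.20 in the authors' deposited table, and only 700 of the 11828 genes were higher. TIMM13, its partner, was at -0.27 ± 0.14 in the same comparison and at -1.13 ± 0.15 with 6-thio-dG in A375 in the authors' deposited table, where TIMM8A rose by 0.43 ± 0.16. TIMM9 and TIMM10, which form the other hexamer, both rose in the A375 combination, by 1.04 ± 0.17 and 1.06 ± 0.14 in the authors' deposited table. With 6-thio-dG they parted. TIMM9 was at 0.43 ± 0.17 in A375 and -1.08 ± 0.19 in HCC827, the largest fall of the 48 genes in that line, while TIMM10 was at -0.65 ± 0.14 in A375 and 0.26 ± 0.20 in HCC827 in the authors' deposited table. With the GC trend removed from the authors' values TIMM8A and TIMM9 no longer passed with 6-thio-dG in A375 (0.19 and 0.02, adjusted p = 0.291 and 0.915). TIMM10B rose by 0.32 ± 0.15 with 6-thio-dG in A375 in the authors' deposited table, just inside the threshold, at an adjusted p of 0.0486, and TIMM8B rose by 0.49 ± 0.15 in the HCC827 combination only.

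TIMM22, the channel of the carrier translocase, rose in both combinations, by 0.72 ± 0.14 in A375 and 0.50 ± 0.16 in HCC827 in the authors' deposited table. TIMM29, which assembles that complex, rose with 6-thio-dG in HCC827, by 0.58 ± 0.22, and did not pass elsewhere in the authors' deposited table. TIMM29, with the GC trend removed from the authors' values, was at 0.57 in the A375 combination, which passed (adjusted p = 0.000562), and at 0.42 with 6-thio-dG in HCC827, which did not (adjusted p = 0.134).

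Of the 6 TIM23 genes, 5 rose in the A375 combination and 4 fell with 6-thio-dG in A375. TIMM23, the channel protein, was at 0.52 ± 0.14 in the A375 combination and 0.28 ± 0.15 in the HCC827 combination, and at -0.49 ± 0.12 and 0.41 ± 0.18 with 6-thio-dG in A375 and HCC827 in the authors' deposited table. TIMM23B, a near-identical copy, fell with 6-thio-dG in HCC827 by 1.02 ± 0.27 in the authors' deposited table, and the division of reads between the pair is uncertain. TIMM50, the receptor that hands presequences to the channel, passed in all 4 comparisons in the authors' deposited table, at 0.79 ± 0.16 and 0.47 ± 0.15 in the A375 and HCC827 combinations and at -0.67 ± 0.14 and 0.70 ± 0.20 with 6-thio-dG in A375 and HCC827. Its fall in A375 was -0.29 with the GC trend taken out of the authors' values (adjusted p = 0.0568). TIMM17A and TIMM17B are paralogues that line the channel. In the authors' deposited table TIMM17A was at 0.74 ± 0.12 in the A375 combination and -0.26 ± 0.15 in the HCC827 combination, and TIMM17B was at 0.51 ± 0.15 and 0.62 ± 0.17. With 6-thio-dG they were at -0.37 ± 0.12 and -0.39 ± 0.16 in A375 and at 0.26 ± 0.19 and -0.10 ± 0.24 in HCC827 in the authors' deposited table. The fall of TIMM17B in A375 turned to 0.05 with the GC trend removed, and that of TIMM17A was -0.86. TIMM21, which links the channel to the respiratory chain, rose by 0.88 ± 0.20 in the A375 combination in the authors' deposited table.

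All 6 import motor genes rose in the A375 combination. HSPA9, the matrix Hsp70 that pulls precursors in, was at 1.25 ± 0.09 in the A375 combination (adjusted p = 1.97e-39) and -0.12 ± 0.12 in the HCC827 combination in the authors' deposited table. With 6-thio-dG alone HSPA9 fell in both lines, by 0.57 ± 0.11 in A375 and 0.59 ± 0.15 in HCC827 in the authors' deposited table. TIMM44, which anchors HSPA9 at the channel, rose in both combinations, by 1.27 ± 0.13 in A375 and 0.50 ± 0.14 in HCC827, and was at 0.03 ± 0.13 and 0.08 ± 0.19 with 6-thio-dG in A375 and HCC827 in the authors' deposited table. PAM16 and DNAJC19, which also belong to the motor, were at 1.39 ± 0.24 and 0.86 ± 0.19 in the A375 combination in the authors' deposited table. They passed in no other comparison.

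GRPEL1 and GRPEL2 are the nucleotide exchange factors of HSPA9. GRPEL1 was at 0.76 ± 0.13 in the A375 combination and -0.70 ± 0.12 with 6-thio-dG in A375, and at 0.23 ± 0.14 and -0.06 ± 0.18 in the HCC827 combination and with 6-thio-dG in HCC827 in the authors' deposited table. GRPEL2 was at 1.45 ± 0.26 in the A375 combination and 0.68 ± 0.18 with 6-thio-dG in A375, and at -0.55 ± 0.33 and -0.11 ± 0.22 in the HCC827 combination and with 6-thio-dG in HCC827 in the authors' deposited table. In A375 the paralogues thus both rose in the combination and went opposite ways with 6-thio-dG alone. The rise of GRPEL2 with 6-thio-dG in A375 was 0.01 once the GC trend was removed from the authors' value (adjusted p = 0.969), while the fall of GRPEL1 was -0.68.

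All 4 matrix chaperones rose in the A375 combination. HSPD1, the chaperonin HSP60, was at 1.28 ± 0.10 in the A375 combination (adjusted p = 1.51e-39) and -0.12 ± 0.12 in the HCC827 combination in the authors' deposited table. With 6-thio-dG alone HSPD1 fell by 0.80 ± 0.11 in A375 and was at 0.25 ± 0.16 in HCC827 in the authors' deposited table. HSPE1, its lid HSP10, which shares the 104-base upstream stretch shown above, was at 1.44 ± 0.13 in the A375 combination and -0.12 ± 0.13 in the HCC827 combination in the authors' deposited table. With 6-thio-dG alone HSPE1 was at -0.34 ± 0.13 in A375 and 0.69 ± 0.19 in HCC827, above HSPD1 in both lines, in the authors' deposited table. The fall of HSPE1 in A375 was -0.16 once the GC trend was removed from the authors' value (adjusted p = 0.292), and that of HSPD1 was -0.92. GENCODE release 29 lists 17 pseudogenes named for HSPD1 and 26 for HSPE1, to which reads of either could also align. In that release the pair also shares 281 exonic bases on opposite strands, 6.62% of those of HSPD1 and 14.2% of those of HSPE1. Reads there could be credited to either gene.

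TRAP1, the matrix Hsp90, passed in all 4 comparisons in the authors' deposited table, at 0.34 ± 0.14 and 0.40 ± 0.13 in the A375 and HCC827 combinations and at -1.60 ± 0.13 and -0.69 ± 0.17 with 6-thio-dG in A375 and HCC827. Its fall in A375 was, with that of TOMM40, the deepest of the 48 genes. DNAJA3, a J-domain co-chaperone, was at 0.99 ± 0.11 in the A375 combination in the authors' deposited table and passed in no other comparison. DNASE1 on the opposite strand shares 29.3% of the exonic bases of TRAP1.

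The subunits of the processing peptidase did not move together in the authors' deposited table. With the GC trend removed, PMPCA at -0.62 and PMPCB at -0.41 both fell with 6-thio-dG in A375. PMPCA fell by 1.05 ± 0.12 with 6-thio-dG in A375 and was at -0.15 ± 0.14 in the A375 combination in the authors' deposited table. PMPCB, the catalytic subunit, was at 0.18 ± 0.12 with 6-thio-dG in A375 and rose by 0.27 ± 0.11 in the A375 combination in the authors' deposited table, a rise of 0.02 with the GC trend removed (adjusted p = 0.903). With 6-thio-dG in HCC827, PMPCA was at 0.17 ± 0.18 and PMPCB fell by 0.47 ± 0.17 in the authors' deposited table (-0.33 and adjusted p = 0.128 for PMPCB with the GC trend removed). In the HCC827 combination PMPCA rose by 0.32 ± 0.13 in the authors' deposited table, which was -0.01 with the trend removed.

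Of the 10 proteases and prohibitins, 4 rose and 1 fell in the A375 combination. LONP1, the main matrix protease, was at 0.70 ± 0.14 and 0.39 ± 0.13 in the A375 and HCC827 combinations and at -1.002 ± 0.13 and -0.90 ± 0.17 with 6-thio-dG in A375 and HCC827 in the authors' deposited table. It thus rose in both combinations and fell with 6-thio-dG alone in both lines, as did TRAP1. CLPP, the other matrix protease, was at -0.03 ± 0.14 in the A375 combination, 0.52 ± 0.15 in the HCC827 combination, -0.89 ± 0.17 with 6-thio-dG in A375 and -0.15 ± 0.21 with 6-thio-dG in HCC827 in the authors' deposited table. Its value in the A375 combination was 0.43 once the GC trend was removed from the authors' value, which passed (adjusted p = 0.0055). CLPX, the unfoldase that feeds CLPP, went the other way, rising by 0.68 ± 0.14 with 6-thio-dG in A375 and standing at -0.74 ± 0.16 in the HCC827 combination in the authors' deposited table. The transcripts of CLPP and CLPX hold 63.4% and 41.3% GC, and with the trend removed from the authors' values CLPX was at 0.28 with 6-thio-dG in A375 (adjusted p = 0.0762).

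Among the inner membrane proteases, SPG7, a subunit of the matrix-facing m-AAA protease, was the 1 fall of the 48 genes in the A375 combination, at -1.51 ± 0.12 in the authors' deposited table (adjusted p = 2.39e-34). SPG7 also fell with 6-thio-dG in A375, by 0.69 ± 0.18 in the authors' deposited table, which was -0.26 with the GC trend removed (adjusted p = 0.217). AFG3L2, its partner subunit, rose by 0.50 ± 0.12 in the A375 combination in the authors' deposited table. OMA1, the stress-activated protease that cleaves OPA1 and DELE1, rose in both A375 comparisons, by 0.99 ± 0.17 in the combination and 1.13 ± 0.16 with 6-thio-dG, and was at -0.32 ± 0.17 and -0.29 ± 0.22 in the HCC827 combination and with 6-thio-dG in HCC827 in the authors' deposited table. YME1L1, the protease on the intermembrane space side, was at 0.24 ± 0.11 in the A375 combination and -0.43 ± 0.14 in the HCC827 combination, and at 0.02 ± 0.14 and -0.25 ± 0.17 with 6-thio-dG in A375 and HCC827 in the authors' deposited table. The HCC827 combination value of YME1L1 turned to 0.03 with the trend removed.

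HTRA2, a protease of the intermembrane space, rose with 6-thio-dG in A375 by 0.95 ± 0.15 and was at -0.05 ± 0.15 in the A375 combination, and stood at 0.44 ± 0.15 and 0.49 ± 0.20 in the HCC827 combination and with 6-thio-dG in HCC827 in the authors' deposited table. LOXL3 and AUP1 on the opposite strand share 20.8% and 16.1% of its exonic bases. The prohibitins PHB1 and PHB2, which form 1 ring in the inner membrane, differed in the A375 combination, at 0.93 ± 0.13 and -0.16 ± 0.11 in the authors' deposited table. With 6-thio-dG in A375 they were at -0.32 ± 0.12 and -1.04 ± 0.13, and with 6-thio-dG in HCC827 at 0.61 ± 0.18 and 0.18 ± 0.16 in the authors' deposited table. The fall of PHB1 in A375 was -0.01 once the GC trend was removed from the authors' value (adjusted p = 0.953).

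The A375 comparisons share no group as read here, and the change between them was tested directly. The log2 fold change in the A375 combination minus that with 6-thio-dG alone in A375 was higher for 33 of the 48 genes and lower for 3 (two-sided z test on the implied standard errors, Benjamini-Hochberg adjusted p under 0.05 over all genes tested), where 28.5% of all genes were higher and 24.1% lower. The median difference was 0.89 over the 48 genes and 0.02 over all genes. From the authors' values HSPD1 had the largest difference, 2.08 ± 0.14 (adjusted p = 5.18e-45), followed by TOMM40 at 2.00 ± 0.18 and TRAP1 at 1.94 ± 0.19. The 3 lower genes were HTRA2 at -0.999 ± 0.21, TOMM7 at -0.83 ± 0.15 and SPG7 at -0.82 ± 0.22. Each of these 6 differences passed the threshold with the GC trend removed as well, when 36 genes were higher and 3 lower.

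A fall with 6-thio-dG alone together with a rise in the combination was found in A375 for 17 of the 48 genes (35.4%) and for 674 of all genes (5.70%). The fall is against the control and the rise is against PLX4720 alone. No comparison of PLX4720 or of the combination with the control was available. Whether these genes lay above or below the control in the combination is therefore unknown. The 17 genes were TOMM5, TOMM6, TOMM22, TOMM40, SAMM50, TIMM10, TIMM17A, TIMM17B, TIMM23, TIMM50, GRPEL1, HSPA9, HSPD1, HSPE1, TRAP1, LONP1 and PHB1, which span 7 of the 9 roles. With the GC trend removed 14 of the 48 genes (29.2%) and 721 of all genes (6.10%) had this pattern, with CLPP and TIMM21 joining and HSPE1, PHB1, TIMM17B, TIMM50 and TOMM6 dropping out. Rises in both A375 comparisons were found for 5 genes, GRPEL2, OMA1, TIMM8A, TIMM9 and TOMM70 (10.4%, against 15.3% of all genes), and a fall in both for SPG7 alone (2.08%, against 16.9%). Across the 48 genes the Spearman correlation of the fold changes in the A375 combination and with 6-thio-dG in A375 was 0.22, and across all 11828 genes it was 0.44, a description of these 2 comparisons since genes are not independent.

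**Figure D3:**
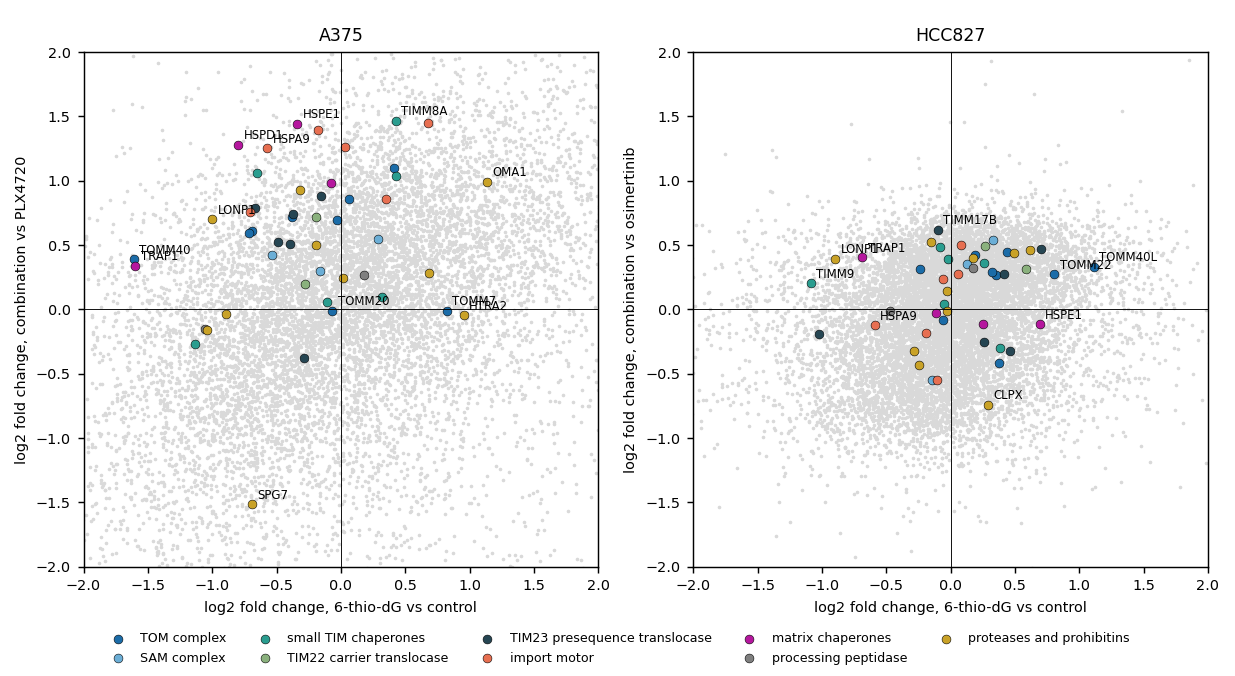
Log2 fold change in the combination against the targeted drug (y axis) and with 6-thio-dG against the control (x axis), for A375 (left) and HCC827 (right), with the 48 genes coloured by role over all genes in grey, where genes beyond 2 in either direction lie outside the axes. In A375 the upper left holds HSPD1, HSPA9, TOMM40, TRAP1 and LONP1, and in HCC827 the points scatter about the origin.

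In HCC827 the combination minus 6-thio-dG alone differed for 8 of the 48 genes, higher for 4 and lower for 4, where 10.8% of all genes were higher and 11.4% lower, and the median difference was 0.05. LONP1 at 1.29 ± 0.21, TIMM9 at 1.29 ± 0.26, TRAP1 at 1.09 ± 0.21 and CLPP at 0.67 ± 0.25 were higher. CLPX at -1.03 ± 0.25, HSPE1 at -0.81 ± 0.23, TOMM70 at -0.79 ± 0.23 and TOMM40L at -0.78 ± 0.27 were lower. LONP1 and TRAP1 were thus higher in this difference in both lines, and HSPE1 was higher in A375 and lower in HCC827. CLPP and TOMM70 did not pass with the GC trend removed from the authors' values (adjusted p = 0.212 and 0.0746), and HSPA9 at 0.64, PMPCB at 0.85 and TIMM8B at 0.67 then did, giving 6 higher and 3 lower.

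The lines were compared in the same way. For the combination, A375 minus HCC827 was higher for 23 of the 48 genes and lower for 6, where 28.9% of all genes were higher and 27.5% lower, with medians of 0.33 over the 48 genes and 0.08 over all genes. All 6 import motor genes were higher, from 0.52 for GRPEL1 to 2.00 ± 0.42 for GRPEL2, and so were HSPE1 at 1.56 ± 0.18, HSPD1 at 1.39 ± 0.15 and HSPA9 at 1.38. SPG7 was lowest, at -1.66 ± 0.20. With the GC trend removed 22 were higher and 5 lower, but 12 of the 29 genes no longer passed and 10 others did. Among the import motor genes 4 of 6 still passed, and DNAJC19 at 0.26 and GRPEL1 at 0.33 did not. CLPP, HTRA2, PMPCA, TIMM13 and YME1L1 had passed as deposited by the authors and changed sign.

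With 6-thio-dG alone, A375 minus HCC827 was higher for 4 of the 48 genes and lower for 20, where 26.2% of all genes were higher and 28.9% lower, with medians of -0.42 over the 48 genes and -0.01 over all genes. TOMM40 at -1.80 ± 0.23, TOMM22 at -1.49 ± 0.21, TIMM50 at -1.37 ± 0.24, PMPCA at -1.23 ± 0.22 and PHB2 at -1.22 ± 0.21 were lowest. TIMM9 at 1.52 ± 0.26 and OMA1 at 1.42 ± 0.27 were highest. These 7 passed with the GC trend removed, when 5 genes were higher and 17 lower. Of the 24 genes, 8 no longer passed, and 6 others did. GRPEL2 and PMPCB, at 0.79 and 0.65 as deposited, changed sign.

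The fold changes followed the GC content of the transcript in every comparison. Over the 48 genes, whose transcripts held 38.9% to 63.6% GC (median 49.3%, against 48.8% over all genes), Spearman's rho was -0.31 in the A375 combination, 0.76 in the HCC827 combination, -0.53 with 6-thio-dG in A375 and 0.21 with 6-thio-dG in HCC827. Over all genes it was -0.25, 0.75, -0.38 and 0.21 in the same order. With the trend removed, 34 genes rose and 2 fell in the A375 combination (70.8% and 4.17%, against 31.0% and 28.9% of all genes). For 6-thio-dG alone in A375, 8 rose and 20 fell (16.7% and 41.7%, against 29.2% and 31.4%). The balance of rises and falls in A375 was thus close to that of the deposited values, but single genes moved. Among the 48 values with 6-thio-dG in A375, 11 turned sign, and of the others 10 lost and 4 gained a call. Shares over all genes of the differences with the trend removed are not given here. The part of GC content in these results was not tested further.

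**Figure D4:**
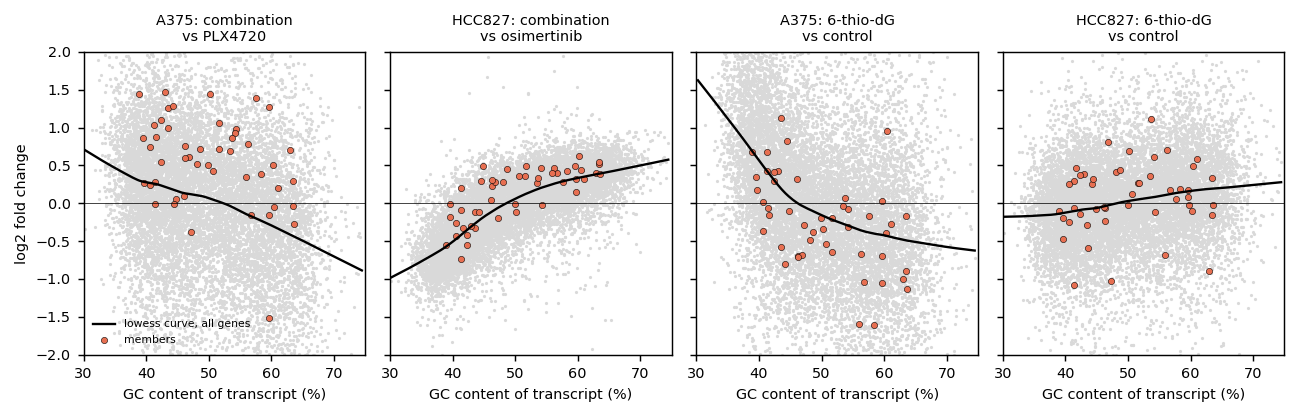
Log2 fold change (y axis) against GC content of the transcript in percent (x axis) in the 4 comparisons, with the 48 genes in orange, all genes in grey and the lowess curve of all genes in black. The axes hide genes beyond 2 in either direction, and the curve climbs most evenly in the HCC827 combination, where rho was 0.75 over all genes.

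The library kit does not mark strand, and how the counting treated overlapping genes is not given in the sources used here. Of the 48 genes, 13 share at least 10% of their exonic bases with another protein-coding gene, among them PAM16 (21.9%, with the read-through gene CORO7-PAM16), TOMM40L (20.1%, with NR1I3) and TIMM8B (30.1%, with NKAPD1), so their values may hold reads of a neighbour.

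In the promoter windows CACGTG was found for 7 of 43 genes (16.3%), against 12.8% of 9581 genes of the deposited table and 8.77% of 27305 genes with a window. They were HSPA9, HSPD1, HSPE1, LONP1, TIMM8A, TIMM10 and TOMM20, and HSPD1 and HSPE1 count the same site. Of these 7 genes 6 rose in the A375 combination in the authors' deposited table, with a median log2 fold change of 1.25, and of the 36 genes without the letters 25 rose and 1 fell, with a median of 0.53. With 6-thio-dG in A375, 1 of the 7 rose and 5 fell, with a median of -0.57, and of the other 36 genes 8 rose and 14 fell, with a median of -0.18. The core of the NRF1 element, CGCATGCG, was found for 4 genes, DNAJA3, LONP1, TIMM9 and TOMM7 (9.30%, against 4.62% of the table's genes). TGATGCAA was found for PMPCB and TIMM22 (4.65%, against 0.689%), and GAANNTTC, letters found within heat shock elements, for HSPD1 (2.33%, against 6.51%). Some genes had several annotated starts, and the 43 genes had 51 windows. The GAANNTTC match, at chr2:197500073-197500080, lies in the window of another HSPD1 start, downstream of the start given above. The CGCATGCG match of LONP1 likewise lies in a different window from its CACGTG matches. Both strands were searched, and CACGTG, CGCATGCG and GAANNTTC read the same on each. A match is a description of letters and was not tested as a binding site. Stretches with CACGTG were picked for print partly by these same fold changes. The split by CACGTG therefore lends no separate support to a link, which was not tested.

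Related genes were read from 3 lists, of which 36 of 37 genes were in the table. In the A375 combination 21 of the 36 rose and 4 fell (58.3% and 11.1%, against 31.2% and 29.3% of all genes, median 0.45). In the HCC827 combination 11 rose and 3 fell (30.6% and 8.33%, against 17.3% and 17.9%, median 0.24), and none of the 36 passed with the GC trend removed. With 6-thio-dG alone in A375 10 rose and 13 fell (27.8% and 36.1%), near the 31.3% and 33.7% of all genes, and in HCC827 3 rose and 9 fell (8.33% and 25.0%, against 14.8% and 14.4%). Among 18 genes of disulfide relay, export and presequence cleavage, 10 rose and 2 fell in the A375 combination. CHCHD4, the oxidoreductase that traps small TIM proteins, was at 1.70 ± 0.16 and CLPB, a disaggregase, at 1.08 ± 0.12 there in the authors' deposited table, and PITRM1, which degrades cleaved presequences, was at -0.91 ± 0.13. Of the same 18 genes, 5 rose and 5 fell with 6-thio-dG in A375. There PITRM1 fell by 1.65 ± 0.13 and MTX3 rose by 2.32 ± 0.25 in the authors' deposited table. Among 8 genes of the MICOS cristae complex and OPA1, 5 rose and 3 did not pass in the A375 combination, and with 6-thio-dG in A375 1 rose and 4 fell.

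The third list holds 10 genes of stress signalling, most of which are not particular to mitochondria. In the A375 combination 6 rose and 2 fell (60% and 20%, against 31.2% and 29.3% of all genes). With 6-thio-dG in A375 4 rose and 4 fell (40% each, against 31.3% and 33.7% of all genes). DDIT3, which encodes the stress factor CHOP, was at 5.03 ± 0.17 in the A375 combination and 4.65 ± 0.17 with 6-thio-dG in A375 in the authors' deposited table. ATF4, the central factor of the integrated stress response, was at 1.39 ± 0.11 in the A375 combination and 0.28 ± 0.11 with 6-thio-dG in A375, and its targets TRIB3 and CHAC1 were at 2.72 ± 0.14 and 2.46 ± 0.22 in the A375 combination in the authors' deposited table. CEBPG was at 2.38 ± 0.16 in the A375 combination and 1.11 ± 0.18 with 6-thio-dG in A375 in the authors' deposited table. With 6-thio-dG in HCC827 CEBPG fell, by 0.98 ± 0.17. ATF5, a factor tied to the mitochondrial unfolded protein response, was at 0.17 ± 0.17 in the A375 combination and fell by 1.68 ± 0.17 with 6-thio-dG in A375 in the authors' deposited table. DELE1, the substrate of OMA1 that relays stress out of the organelle, was at -0.90 ± 0.14 in the A375 combination and fell by 0.82 ± 0.15 with 6-thio-dG in A375 in the authors' deposited table. EIF2AK1 also fell in both, by 0.43 ± 0.11 in the A375 combination and 0.77 ± 0.11 with 6-thio-dG in A375 in the authors' deposited table. With 6-thio-dG in HCC827, 6 of the 10 fell and the other 4 did not pass (60% fell and 0% rose, against 14.4% and 14.8% of all genes). TRIB3 was at -1.63 ± 0.17 and DDIT3 at -1.59 ± 0.22 there in the authors' deposited table.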

How the data were processed

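RNA was made into libraries with the NEB Next Ultra RNA kit after poly-T selection, per the labels' protocols. The submitters' processing notes name FastQC, Trimmomatic, STAR and hg38. Versions, the counting tool, the annotation, the statistical test, shrinkage and gene filters were not given in the sources used here. A table listing 11828 genes in 4 comparisons is what the authors deposited. It gives log2 fold changes for each gene, per the file headers. It also gives a p-value, raw and adjusted, for each, per the file headers. Depth per library is unknown.

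The design had allowed for counts per library, and the table holds none, so the authors' own tests were the starting point. A normal z was read from each two-sided p-value, and dividing the fold change by z gave the implied standard error. With these errors, pairs of comparisons were set against each other by a two-sided z test, adjusted by Benjamini-Hochberg over all genes tested in each of 4 families. Genes were called at an adjusted p of 0.05. GC content came from the longest transcript in GENCODE release 29, protein coding where there is one, and a lowess curve (span 0.3) was subtracted to take out its trend, keeping the median. Other settings were a minimum change of 2-fold, a stricter adjusted p of 0.01, adjustment over the table's genes, and 4 degrees of freedom under a t distribution when reading p-values. The steps were tested on simulated data in Python 3.11.15 with numpy 2.4.6, pandas 2.3.3, scipy 1.17.1 and statsmodels 0.14.6.

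The members, their roles, the lists and the settings were chosen with earlier results of these data known. Any of the 48 genes could be named. Always described are HSPD1, HSPE1, HSPA9, LONP1, CLPP, TIMM17A, TIMM17B, GRPEL1, GRPEL2, HTRA2, OMA1, YME1L1, TIMM23, TOMM20 and TOMM40, and then the largest called changes and differences. From the other lists, some of the called genes were named, but not in strict order of p-value. The time course and comparisons that the table does not list were not analysed here.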

Additional observations from a re-analysis of the deposited data

Results flagged for a closer look

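The following genes are listed because their fold changes differed between the 2 cell lines under the same contrast, by a two-sided z test on the implied standard errors with Benjamini-Hochberg adjustment over all genes tested. The values are log2 fold changes in A375 minus those in HCC827. Lines also differ in tissue of origin and in the targeted drug given, and the part of these in the differences was not tested.

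For the combination, the import motor genes were higher in A375, with GRPEL2 at 2.00, HSPA9 at 1.38, PAM16 at 1.12, DNAJC19 at 1.04, TIMM44 at 0.77 and GRPEL1 at 0.52. Among matrix chaperones HSPE1 was at 1.56, HSPD1 at 1.39 and DNAJA3 at 1.01. The TOM receptor TOMM70 was at 1.51, with TOMM40L at 0.53 and TOMM34 at 0.42, and in the SAM complex MTX2 was at 1.09. In the intermembrane space TIMM8A was at 1.77, TIMM9 at 0.84 and TIMM10 at 0.70, while TIMM13 was at -0.66. In the TIM23 complex TIMM21 was at 1.20 and TIMM17A at 1.00. Proteases and prohibitins lay on both sides, with OMA1 at 1.32, CLPX at 1.02, YME1L1 at 0.67, AFG3L2 at 0.51 and PHB1 at 0.47, and with SPG7 at -1.66, PHB2 at -0.56, CLPP at -0.55 and HTRA2 at -0.48. The peptidase subunit PMPCA was at -0.47. Of these 29 differences 12 did not pass with the GC trend removed, and 5 of the 12 changed sign: CLPP (0.31), HTRA2 (0.21), PMPCA (0.18), TIMM13 (0.21) and YME1L1 (-0.025). The other 7 were DNAJC19 (0.26), GRPEL1 (0.33), CLPX (0.39), TIMM9 (0.20), TIMM17A (0.30), TIMM21 (0.59) and PHB2 (-0.075).

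With 6-thio-dG alone most of the listed genes were lower in A375. In the TOM complex TOMM40 was at -1.80, TOMM22 at -1.49, TOMM40L at -1.05 and TOMM6 at -0.82, and SAMM50 was at -0.66. TIMM50 was at -1.37, TIMM23 at -0.90, TIMM17A at -0.63 and TIMM29 at -0.86. TIMM13 was at -1.11 and TIMM10 at -0.91, but TIMM9 was at 1.52. HSPD1 was at -1.05, HSPE1 at -1.03, TRAP1 at -0.91 and GRPEL1 at -0.64, while GRPEL2 was at 0.79. PMPCA was at -1.23 and PMPCB at 0.65. PHB2 was at -1.22, PHB1 at -0.93, CLPP at -0.74 and SPG7 at -0.66, and OMA1 was at 1.42. Of these 24 differences 8 did not pass with the GC trend removed, and GRPEL2 (-0.034) and PMPCB (-0.080) changed sign. The other 6 were CLPP (-0.051), SPG7 (-0.082), TIMM29 (-0.24), TIMM13 (-0.42), SAMM50 (-0.44) and TRAP1 (-0.45).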

How the results depend on the processing

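Requiring a change of at least 2-fold left 10 rises in the A375 combination, 0 rises and 0 falls in the HCC827 combination, 1 rise and 6 falls with 6-thio-dG in A375, and 1 rise and 2 falls with 6-thio-dG in HCC827. Under the same rule 20 genes differed between the A375 combination and 6-thio-dG alone, 4 did so in HCC827, and 15 (combination) and 11 (6-thio-dG alone) differed between lines. At an adjusted p of 0.01, 9 genes rose and 2 fell in the HCC827 combination. With the GC trend removed 2 genes fell in the A375 combination, and 4 rose and 0 fell in the HCC827 combination. At an adjusted p of 0.01 the genes lower for the combination, A375 minus HCC827, numbered 3 in place of 6. Shares over all genes under the 2-fold rule and the 0.01 threshold are not given here, so counts under either cannot be read against all genes. The other counts of the 48 genes that rose, fell, or differed were within 1.5 times of those given, where differences count higher and lower genes together. This covers these settings, adjustment over the table's genes and p-values read as a t test. Split by direction, differences moved further under the 2-fold rule. SPG7 alone was then lower for the combination, A375 minus HCC827. HTRA2, TOMM7 and SPG7 no longer counted as lower for the A375 combination minus 6-thio-dG alone. Of the 36 related genes, 0 rose and 0 fell in the HCC827 combination with the GC trend removed. Removing the GC trend turned the sign of 37 values, of which 4 had passed as deposited by the authors, namely TIMM17B with 6-thio-dG in A375 (0.050) and PMPCA (-0.013), TIMM13 (-0.012) and YME1L1 (0.032) in the HCC827 combination. Among those that had not passed as deposited, the values with the trend removed were as follows, and some of them then passed. These were CLPP in the A375 combination, PMPCB in the HCC827 combination, and MTX1, PMPCB, TOMM34 and YME1L1 with 6-thio-dG in A375. In the A375 combination CLPP was at 0.43, HTRA2 at 0.30, PHB2 at 0.045, PMPCA at 0.16, TIMM10B at -0.0063, TIMM13 at 0.20 and TIMM8B at -0.075. In the HCC827 combination DNAJC19 was at 0.35, GRPEL2 at 0.018, HSPA9 at 0.14, HSPD1 at 0.10, PAM16 at -0.024, PMPCB at 0.51, SPG7 at -0.19, TIMM17A at 0.21, TIMM21 at 0.067, TIMM29 at -0.044 and TOMM20 at 0.32. With 6-thio-dG in A375 DNAJA3 was at 0.24, DNAJC19 at -0.25, MTX1 at 0.34, MTX2 at -0.0075, PAM16 at 0.23, PMPCB at -0.41, TIMM22 at 0.036, TIMM29 at 0.18, TOMM34 at 0.26 and YME1L1 at -0.47. With 6-thio-dG in HCC827 GRPEL2 was at 0.043, PAM16 at -0.069, TIMM10B at 0.0043, TIMM44 at -0.064 and TOMM20 at 0.054. The cause was not tested. No paired analysis was possible because the table holds no values per library, and leaving out libraries in turn was not run for the same reason. Without counts, what depth limits could not be assessed.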
